A study of Mus musculus with 6 samples.

Results

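MHC class I and class II presentation was followed through 10 genes that were chosen by symbol: the class I chain genes H2-K1 and H2-D1, the light chain gene B2m, the peptide loading genes Tap1, Tap2 and Tapbp, the class II chain gene H2-Ab1, its partner Cd74, and the regulator genes Nlrc5 and Ciita. All 10 were found among the 55401 genes of the tables, and all 10 passed the filter on low counts that left 15334 genes for testing. The RNA was polyadenylated RNA of primary mouse cholangiocytes, the epithelial cells that line bile ducts. Wild-type (WT) animals and animals with the genotype named PLD were compared, both 3 months after tamoxifen, with 3 libraries each. Livers of both groups were perfused and digested with collagenase, and biliary cells were picked with bead-bound antibody to EpCAM, a surface protein of epithelia. The gene altered in the PLD animals, the driver of any recombinase, the strain, the age and the number of animals pooled were not given in the sources used here. Whether each library is a separate animal is likewise not stated, and p-values then reflect only the spread among libraries, which may be technical.

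Class I molecules sit on nearly all nucleated cells and show peptides from the cell's own proteins to CD8 T cells and NK cells. The proteasome cuts those proteins, the TAP transporter carries the peptides into the endoplasmic reticulum, and tapasin helps to load them onto a heavy chain bound to beta-2-microglobulin. Class II molecules show peptides of endocytosed proteins to CD4 T cells and are made mainly by dendritic cells, macrophages and B cells, while epithelial cells can make them under interferon gamma. NLRC5 is the co-activator of class I genes and CIITA that of class II genes, and both work through a shared promoter module (S, X and Y boxes) bound by RFX, CREB and NF-Y proteins.

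The letters of that module were looked for in RefSeq promoter windows (GRCm38.p6), which run from 250 bases before to 50 bases after a gene's start. Windows were found for 5 of the 10 genes (H2-K1, H2-D1, B2m, Tap1 and Tapbp). A TGACG (the core of X2, the CREB site) followed on the same strand by ATTGG (the core of Y, the NF-Y site) after 19 to 22 bases stood in 3 of these 5 genes, H2-K1, H2-D1 and B2m, each time with 20 bases between them. Over all 32851 windows, both strands counted, 0.237% held such a pair, while TGACG alone was in 20.8% and ATTGG alone in 37.4%. H2-K1 and H2-D1 also held GGGGATTCC, the core of the enhancer A site of NF-kappa B (0.25% of windows), and TTTCACTTC, the class I interferon response element (0.505% of windows). B2m held GAAANNGAA, a loose form of the interferon-stimulated response element (8.56% of windows). Among other class I pathway genes, 2 of 22 with a window held the pair, H2-M3 with 20 and H2-Q7 with 19 bases between. Among other class II pathway genes it was 1 of 14, the chain gene H2-Aa, with 21 bases between. In H2-Aa the TGACG overlaps a match of the same letters on the other strand. Matches are descriptions of letters and not measured binding. The stretches below, 5′ to 3′ on the gene's strand, are those of the 3 class I chain genes followed here and of 1 class II chain gene for comparison. Among these genes only B2m passed the test of PLD against WT given below. Capitals mark the matches on the gene's strand.
H2-K1 (first of 2 windows, minus strand, chr17:34000354-34000463): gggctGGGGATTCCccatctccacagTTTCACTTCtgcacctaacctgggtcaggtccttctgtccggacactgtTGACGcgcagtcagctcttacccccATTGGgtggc
H2-D1 (plus strand, chr17:35262918-35263027): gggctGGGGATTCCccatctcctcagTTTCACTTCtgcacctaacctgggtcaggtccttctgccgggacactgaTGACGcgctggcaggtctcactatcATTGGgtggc
B2m (plus strand, chr2:122147543-122147643): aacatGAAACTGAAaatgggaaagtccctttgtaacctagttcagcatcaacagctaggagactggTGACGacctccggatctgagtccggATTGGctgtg
H2-Aa (minus strand, chr17:34287847-34287917): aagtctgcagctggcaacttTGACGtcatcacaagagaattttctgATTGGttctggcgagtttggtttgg

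Each library held between 15768561 and 16710548 reads in genes. Levels are given as CPM, read counts scaled to library size with TMM factors, and a floor of 3 reads was 0.180 to 0.190 CPM. The groups differed widely in markers of other cell types and of cholangiocytes. The summed CPM of 11 cholangiocyte markers was 9259.6 to 13520 in WT and 31908 to 44348 in PLD, and that of 12 endothelial markers was 5697 to 7668 in WT and 389.8 to 682 in PLD. In bulk RNA, fewer cells of a type and less RNA per cell cannot be told apart. PLD replicate 1 and WT replicate 1 correlated least with the other libraries of their groups (Pearson r across genes of log2 CPM 0.973 and 0.976, and 0.971 and 0.980, against 0.991 and 0.988 for the remaining pairs).

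Of the 10 presentation genes 3 fell in PLD and 0 rose by edgeR's quasi-likelihood test at an adjusted p below 0.05. The genes that fell were B2m, Tap2 and Nlrc5, all of the class I pathway. Over all tested genes 55.4% were called, 27% higher and 28.4% lower, so the share of these 10 genes that was called (30%) lay below that of the whole table. At an unadjusted p below 0.05 the counts were 0 higher and 4 lower, and DESeq2 called 0 higher and 3 lower. The median log2 fold change of the 10 genes was -0.35, against 0.01 over all tested genes. All 3 PLD libraries lay below all 3 WT libraries for 4 of the 10 genes and above them for 0, where 33.2% of all tested genes lay wholly below and 66.2% were apart in either direction. The count of lower genes was 5 without PLD replicate 3, with H2-K1 and Ciita added, and 2, with B2m lost, when either PLD replicate 2 or WT replicate 3 was left out. It gained 1 higher gene, H2-Ab1, without PLD replicate 1. In all 10 genes PLD replicate 1 was the lowest PLD library.

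**Figure D1:**
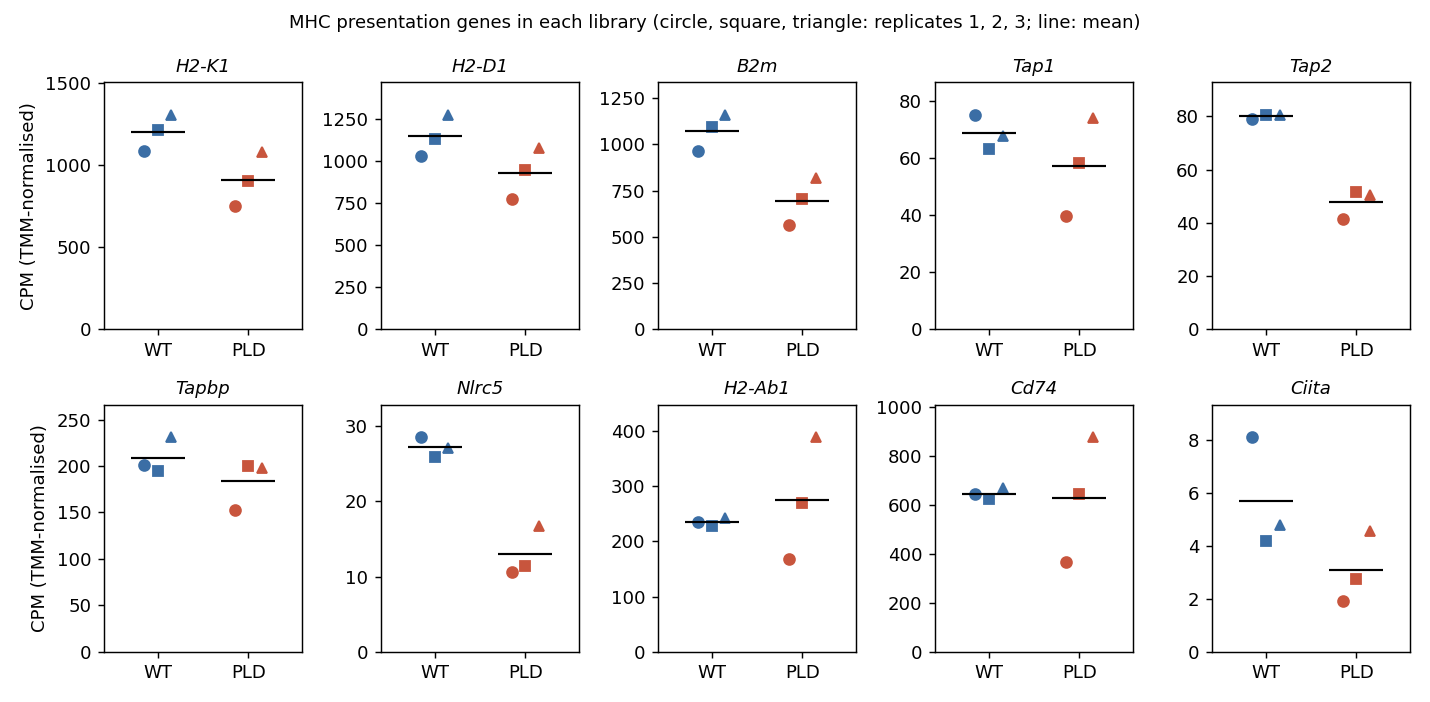
TMM-normalised CPM (vertical axes, from 0) of the 10 presentation genes in the 3 WT and 3 PLD libraries, with 1 point per library and a line at the group mean. PLD lies wholly below WT for H2-K1, B2m, Tap2 and Nlrc5, while H2-Ab1 and Cd74 spread from below to above WT.

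The classical heavy chains were lower in the mean without passing the test. H2-K1 (ENSMUSG00000061232.16, mm10 chromosome 17, 33996017 to 34000347), 1 of the 2 classical class I heavy chain genes followed here, had 1084, 1211 and 1306 CPM in the WT libraries and 749, 899.6 and 1079 CPM in the PLD libraries. The groups did not overlap, but the highest PLD value lay just under the lowest WT value. Its log2 fold change was -0.40 ± 0.16 (SE; 95% interval -0.78 to -0.02; edgeR adjusted p = 0.0709). H2-D1 (ENSMUSG00000073411.12, chromosome 17, 35262730 to 35267499) had 1032, 1129.9 and 1275 CPM in WT and 772, 946 and 1074 CPM in PLD. Here the groups overlapped, with PLD replicate 3 above WT replicate 1, and the log2 fold change was -0.30 ± 0.16 (95% interval -0.67 to 0.07; edgeR adjusted p = 0.146). The H2-K1 call depended on the library set: without PLD replicate 3 its log2 fold change was -0.53 and passed (edgeR adjusted p = 0.0370). Across the 6 libraries, and among 10136 other genes whose mean log2 CPM reached 3, the profile nearest to that of H2-K1 was Extl2 (root mean square distance 0.046 on the log2 scale), followed by H2-D1 (0.060) and Cd300ld (0.063).

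B2m, which encodes the light chain shared by class I and class I-like molecules (ENSMUSG00000060802.8, chromosome 2, 122147686 to 122153083), fell in PLD. Its level was 962, 1093 and 1161 CPM in WT and 561, 706 and 821 CPM in PLD, so every PLD library lay below every WT library. The WT mean was 1072 ± 102 CPM and the PLD mean 696 ± 129.9 CPM (SD, n = 3 libraries each). The log2 fold change was -0.62 ± 0.17 (SE, edgeR adjusted p = 0.0147). The call was lost without PLD replicate 2 (edgeR adjusted p = 0.0514) and without WT replicate 3 (edgeR adjusted p = 0.0568), and removing a trend with gene length moved the change to -1.01. Within a library, B2m had 45.4, 46.7 and 45.0 reads per 100 reads of H2-K1 and H2-D1 in WT and 36.9, 38.3 and 38.1 in PLD. The ratio was thus lower in all 3 PLD libraries, by 0.28 on the log2 scale (exact two-sided permutation test p = 0.1, the smallest that 3 against 3 allows; 0.11 after Benjamini-Hochberg adjustment over 11 ratios).

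Of the 3 loading genes Tap2 passed the test, and Tap1 and Tapbp did not. Tap2 (ENSMUSG00000024339.12, chromosome 17, 34203527 to 34216321) had 78.9, 80.6 and 80.5 CPM in WT and 41.3, 51.7 and 50.5 CPM in PLD. Its groups were well apart and its WT values nearly equal, and it fell by 0.74 ± 0.11 on the log2 scale (edgeR adjusted p = 0.00113), a call that held when each library in turn was left out (largest adjusted p over the alternatives 0.00749). Tap1, the other subunit (ENSMUSG00000037321.17, chromosome 17, 34187553 to 34197225), had 75.1, 63.0 and 67.5 CPM in WT and 39.5, 58.2 and 74.0 CPM in PLD. PLD replicate 1 was far below the WT libraries and PLD replicate 3 was among them, and the log2 fold change was -0.26 ± 0.21 (95% interval -0.75 to 0.23; edgeR adjusted p = 0.328). The reads of Tap1 per read of Tap2 were 0.951, 0.781 and 0.838 in WT and 0.957, 1.13 and 1.47 in PLD, a log2 difference of 0.45 (exact permutation p = 0.1, adjusted 0.11). PLD replicate 1 exceeded WT replicate 1 only slightly in that ratio. Tapbp, which encodes tapasin, had 201, 194 and 231 CPM in WT and 152, 199.7 and 198 CPM in PLD, with overlapping groups (log2 fold change -0.19 ± 0.14; 95% interval -0.51 to 0.13; edgeR adjusted p = 0.280). Some exon bases are shared with other genes: 212 of Tap1 with Psmb9 on the opposite strand, 149 of Tapbp with Zbtb22 and 904 with the antisense Gm19412, and 533 of Tap2 with the antisense Gm15821 and 165 with the antisense Gm20496. Those 3 antisense genes had at most 9 reads in a library. Without a strand setting, reads in the opposite-strand overlaps cannot be given to either gene. Zbtb22 lies on the same strand as Tapbp, so a strand setting would not separate reads in that overlap.

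Nlrc5, the class I co-activator gene (ENSMUSG00000074151.13, chromosome 8, 94434356 to 94527272), had the largest called change of the 10. It had 28.6, 26.0 and 27.1 CPM in WT and 10.7, 11.4 and 16.8 CPM in PLD, with no overlap. Its mean was 27.2 ± 1.31 CPM in WT and 13.0 ± 3.33 CPM in PLD, and it fell by 1.07 ± 0.18 on the log2 scale (edgeR adjusted p = 0.00212). The call held under all alternatives tried (largest adjusted p 0.0125). Nlrc5 was also lower relative to its targets, with 0.928, 0.756 and 0.725 reads per 100 reads of H2-K1, H2-D1 and B2m in WT and 0.512, 0.449 and 0.564 in PLD (log2 difference -0.66, exact permutation p = 0.1, adjusted 0.11). Ciita, the class II co-activator gene (ENSMUSG00000022504.10, chromosome 16, 10480059 to 10528418), was rare, with 138, 71 and 78 reads in WT and 28, 45 and 76 in PLD. That is 8.13, 4.18 and 4.81 CPM in WT and 1.93, 2.74 and 4.56 CPM in PLD, so the groups overlapped, and WT replicate 1 stood above the other WT libraries. Its log2 fold change was -0.89 ± 0.38 (95% interval -1.78 to 0.01; edgeR adjusted p = 0.0843). Without PLD replicate 3 the change was -1.27 and passed (edgeR adjusted p = 0.0332), and without WT replicate 1 it was -0.54. Per 100 reads of H2-Ab1 and Cd74 there were 0.924, 0.489 and 0.527 Ciita reads in WT and 0.361, 0.299 and 0.359 in PLD (log2 difference -0.87, exact permutation p = 0.1, adjusted 0.11). Ciita shares 329 exon bases with Dexi on the opposite strand.

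The class II genes had nearly equal means in both groups and a wide spread in PLD. H2-Ab1, the beta chain of the I-A molecule (ENSMUSG00000073421.6, chromosome 17, 34257689 to 34269419), had 236, 228 and 242 CPM in WT and 168, 270.3 and 389 CPM in PLD. The WT libraries were within 1.06 times of each other, while the highest PLD library was 2.32 times the lowest, a wider spread in PLD than for 96.2% of the 10137 genes at that level. Cd74, the invariant chain that guides class II molecules to the endosome (ENSMUSG00000024610.15, chromosome 18, 60803848 to 60812652), had 644, 626 and 669.6 CPM in WT and 366, 647 and 879 CPM in PLD. PLD replicate 1 was below all WT libraries, PLD replicate 3 above them, and PLD replicate 2 among them. The log2 fold changes were 0.23 ± 0.27 for H2-Ab1 (95% interval -0.39 to 0.85; edgeR adjusted p = 0.495) and -0.04 ± 0.28 for Cd74 (95% interval -0.69 to 0.62; edgeR adjusted p = 0.922). These intervals do not exclude changes of either direction. Without PLD replicate 1, H2-Ab1 was higher by 0.49 and passed (edgeR adjusted p = 0.0301), and Cd74 turned to 0.25 (edgeR adjusted p = 0.194). Without PLD replicate 3, H2-Ab1 turned to -0.092.

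The other class II chains took the same course through the libraries. H2-Aa, the alpha chain of I-A, had 262, 255 and 277 CPM in WT and 183, 289 and 414 CPM in PLD. H2-Eb1, the beta chain of the I-E molecule, had 238, 235 and 241 CPM in WT and 138, 237 and 343 CPM in PLD. In both genes PLD replicate 1 was lowest and PLD replicate 3 highest of all 6 libraries. By edgeR 0 of the 4 class II chain genes (H2-Aa, H2-Ab1, H2-Eb1 and Cd74) changed, where 55.4% of all tested genes were called. The same count was 0 at an unadjusted p below 0.05 and 0 by DESeq2. The profile nearest to that of Cd74 among 10136 genes was H2-Eb1 (distance 0.037 on the log2 scale), followed by H2-DMa (0.11) and Xylt1 (0.11). H2-Ea-ps, the alpha chain partner of H2-Eb1 that is silent in some mouse strains, had 2 reads over the WT and 2 over the PLD libraries. H2-Ab1 was higher relative to Cd74 in every PLD library, with 45.7, 41.8 and 44.3 reads per 100 Cd74 reads against 36.6, 36.5 and 36.2 in WT (log2 difference 0.27, exact permutation p = 0.1, adjusted 0.11). The reads of H2-Ab1 and Cd74 per 100 reads of H2-K1 and H2-D1 overlapped between the groups, with 41.6, 36.5 and 35.3 in WT and 35.1, 49.7 and 58.9 in PLD (log2 difference 0.31, exact permutation p = 0.4, adjusted 0.4).

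**Figure D2:**
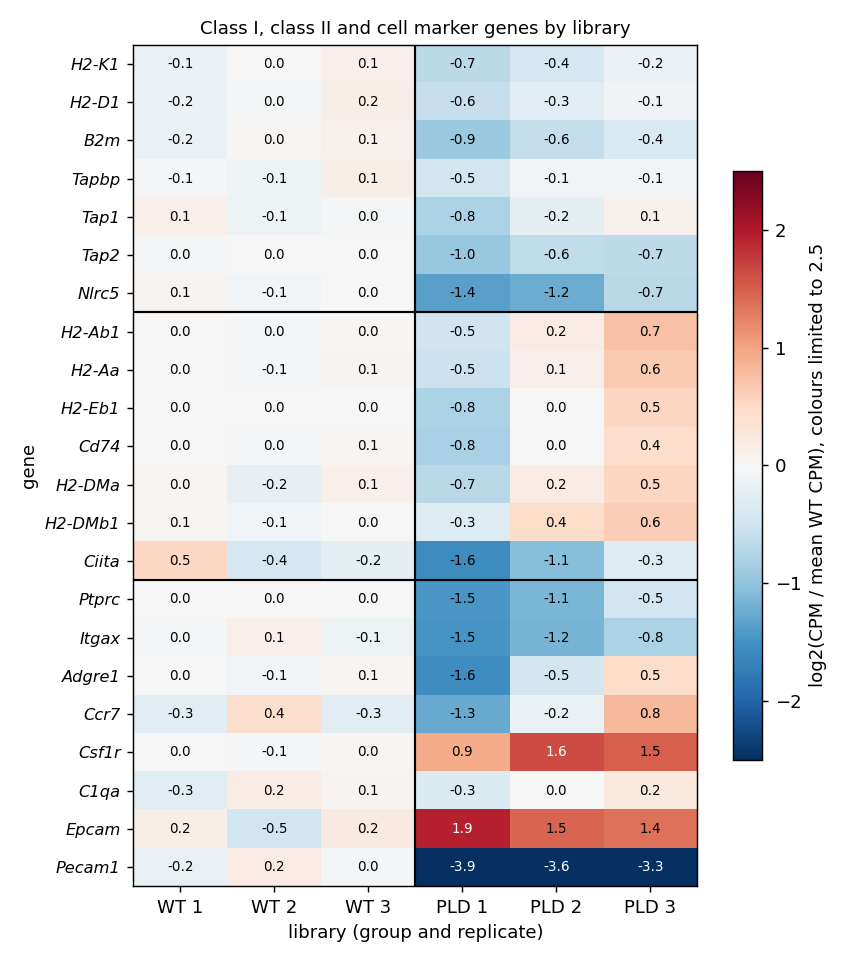
Log2 of each library's CPM over the mean WT CPM (colour and printed value) for class I genes (top block), class II genes (middle block) and genes of other cell types and of cholangiocytes (bottom block), in columns of 3 WT and 3 PLD libraries. In the class II block PLD replicate 1 is below and PLD replicate 3 above the WT mean, except for Ciita, which is below it in all 3 PLD libraries.

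Levels per length of gene model, as CPM divided by gene model length in kilobases (RPKM), place B2m first and the regulators last in both groups. In WT, B2m had 1246 ± 118 RPKM, H2-D1 444 ± 47.4, H2-K1 409 ± 37.9 and Cd74 385 ± 12.9 (SD, n = 3 libraries). The ranges of H2-D1 and H2-K1 overlapped, as did those of H2-K1 and Cd74, so their order was not resolved. H2-Ab1 (91.7 ± 2.74 RPKM), Tapbp (57.5 ± 5.44), Tap2 (21.2 ± 0.251), Tap1 (12.5 ± 1.118), Nlrc5 (3.21 ± 0.154) and Ciita (0.598 ± 0.222) followed without overlap between neighbours. In PLD the order of means put Cd74 (376 ± 153 RPKM) before H2-D1 (361 ± 58.9) and H2-K1 (309 ± 56.3), with overlapping ranges. Tap2 (12.7 ± 1.51 RPKM) and Tap1 (10.45 ± 3.16), which were apart in WT, overlapped in PLD.

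Other class I pathway genes gave more falls than rises. Of 27 genes 25 were tested, and 12 fell, 1 rose and 12 did not pass, with a median log2 fold change of -0.28. The share called, 52%, was near the 55.4% of all tested genes, of which 28.4% were lower. Class I chains outside the 10 genes made up most of the falls, with 8 of 11 tested chains lower and 1 higher. H2-T23, the Qa-1 chain recognised by NK cell receptors, had 112, 106 and 104 CPM in WT and 46.2, 60.4 and 60.6 CPM in PLD and fell by 0.95 ± 0.12 (edgeR adjusted p = 6.97e-04). H2-T24 had a mean of 35.6 ± 9.24 CPM in WT and 4.10 ± 1.71 CPM in PLD and fell by 3.11 ± 0.32. H2-Q6 (-1.45) and H2-Q7 (-1.40), near-identical genes for the Qa-2 chain, fell as well, as did H2-M3 (-1.12), which presents formylated peptides, H2-Q4 (-0.70), H2-T22 (-0.37) and H2-Q10 (-2.65), a secreted chain known from liver. H2-Q2 was the 1 of these 11 chains that rose, from 4.77 ± 0.466 to 14.7 ± 3.32 CPM (log2 fold change 1.62 ± 0.21). Among H2 genes outside the lists that are annotated as pseudogenes, H2-Bl rose (2.80 ± 0.47), and H2-K2 (-1.29 ± 0.24) and H2-Q5 (-1.65 ± 0.42) fell. PLD replicate 1 was lowest among the 6 libraries for H2-Q6 (41.9 CPM against 76.7 to 283) and highest for H2-Q2 (18.4 CPM against 4.24 to 13.7). Reads that fit several of these related genes equally are left out by the counting program's default, so values of single H2-Q and H2-T genes are uncertain. Hfe, a class I-like gene of iron control, fell by 1.87 ± 0.17 and Fcgrt, the neonatal Fc receptor gene, by 1.13 ± 0.18. Mr1 (0.09) and Cd1d1 (0.23), which present metabolites and lipids, did not pass.

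Erap1, which trims peptides in the endoplasmic reticulum, had 105 ± 6.94 CPM in WT and 58.6 ± 6.45 CPM in PLD and fell by 0.84 ± 0.11 on the log2 scale (edgeR adjusted p = 6.93e-04). The chaperone genes of peptide loading did not pass: Calr had a log2 fold change of -0.27, Canx of 0.07 and Pdia3 of -0.06. Of the 3 immunoproteasome subunit genes, Psmb9 fell from 20.05 ± 1.19 to 11.2 ± 3.52 CPM (-0.84 ± 0.23), and Psmb8 (-0.25) and Psmb10 (-0.28) did not pass. The standard subunits that they replace, Psmb5 (0.59), Psmb6 (0.67) and Psmb7 (0.79), all rose, although Psmb5 lost its call without PLD replicate 2, WT replicate 1 or WT replicate 3 (edgeR adjusted p = 0.0725, 0.0634 and 0.0671) and with the length trend removed (0.354). Each immunosubunit was therefore lower relative to its counterpart in all PLD libraries. Psmb9 had 29.6, 24.4 and 26.7 reads per 100 Psmb6 reads in WT and 6.17, 9.04 and 13.4 in PLD, a log2 difference of -1.56. The log2 difference was -0.84 for Psmb8 to Psmb5 and -1.07 for Psmb10 to Psmb7. Each of these 3 ratios had an exact permutation p of 0.1 (adjusted 0.11), the smallest possible.

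**Figure D3:**
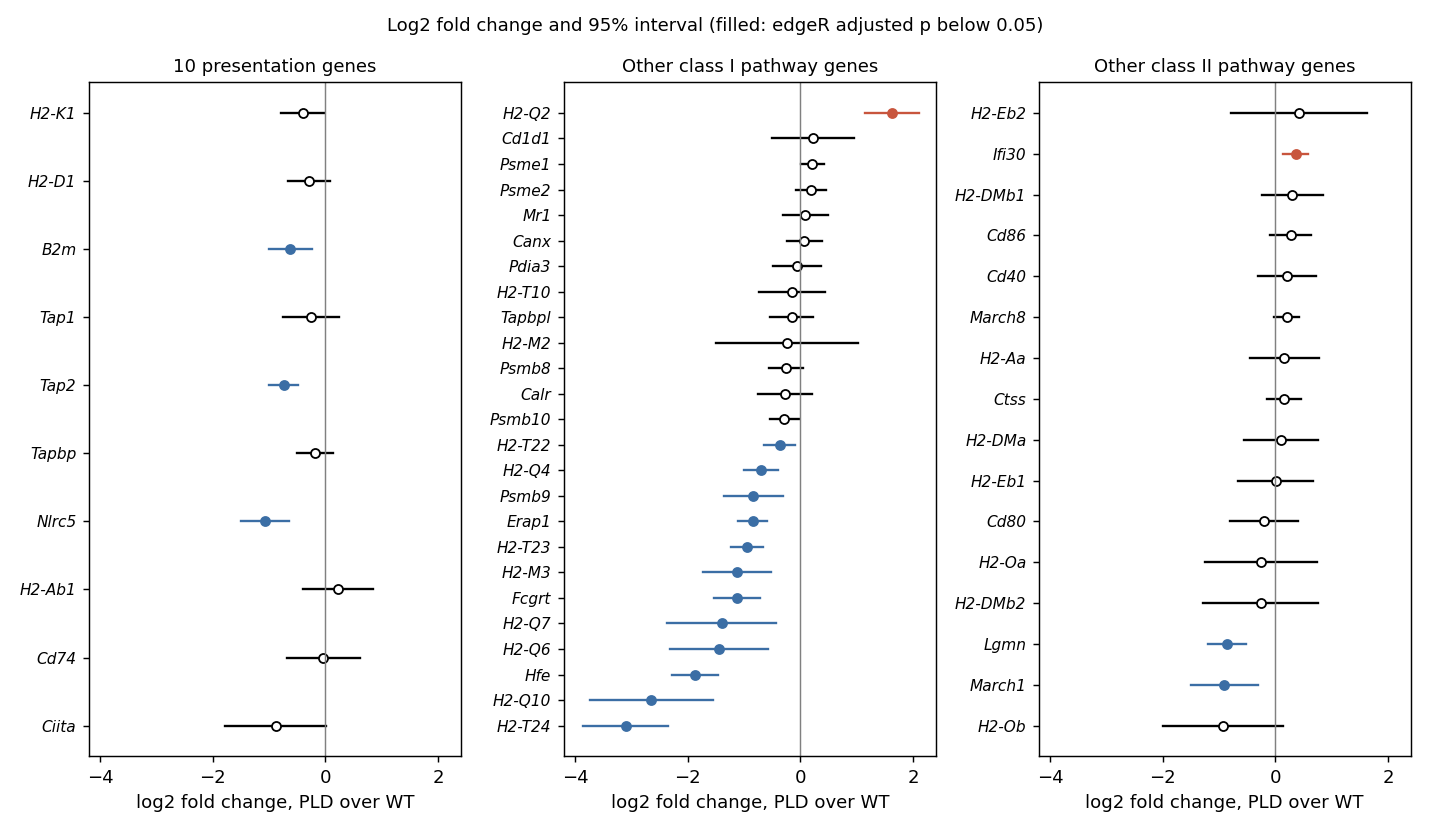
Log2 fold change of PLD over WT (horizontal axis) with its 95% interval for the 10 presentation genes, 25 other class I pathway genes and 16 other class II pathway genes, filled where the edgeR adjusted p was below 0.05. The lowest value is that of H2-T24 (-3.11), 12 of the 25 other class I genes and 2 of the 16 other class II genes are filled as lower, and the difference between these lists was not tested.

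Among 16 other class II pathway genes 2 fell, 1 rose and 13 did not pass, with a median log2 fold change of 0.13, where 27% of all tested genes were higher and 28.4% lower. The peptide exchange genes H2-DMa, H2-DMb1 and H2-DMb2 and the exchange inhibitor genes H2-Oa and H2-Ob gave 0 calls in either direction, also 0 at an unadjusted p below 0.05 and 0 by DESeq2. H2-Ob passed without PLD replicate 3 (log2 fold change -1.57, edgeR adjusted p = 0.0158). H2-DMa had 15.8, 13.4 and 16.8 CPM in WT and 9.49, 17.5 and 22.2 CPM in PLD. The lysosomal protease gene Lgmn fell from 235 ± 39.8 to 129.6 ± 11.4 CPM (-0.86 ± 0.15). March1 (also called Marchf1), a ubiquitin ligase gene of class II turnover, fell by 0.91 ± 0.26, but its call was lost without PLD replicate 3, WT replicate 2 or WT replicate 3 (edgeR adjusted p = 0.0604, 0.0533 and 0.0819) and with no filter on low counts (0.0548). Ifi30, a lysosomal thiol reductase gene, rose from 34.6 ± 0.432 to 44.6 ± 2.78 CPM (0.37 ± 0.10), and this change was -0.0022 once a trend with gene length was removed. Ctss (0.15), which cuts the invariant chain, and the costimulation genes Cd80 (-0.20), Cd86 (0.27) and Cd40 (0.21) did not pass.

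The DNA-binding partners of Nlrc5 and Ciita went both ways. Of 7 genes, Rfxap (0.70 ± 0.12), Nfyc (0.56 ± 0.12) and Nfyb (0.50 ± 0.13) rose, Rfx5 (-0.66 ± 0.16) and Creb1 (-0.49 ± 0.10) fell, and Rfxank (-0.34) and Nfya (-0.23) did not pass. Their called share was 71.4%, against 55.4% of all tested genes (27% higher and 28.4% lower). The Creb1 call was lost when a trend with gene length was removed (log2 fold change -0.15, edgeR adjusted p = 0.181). Of 20 genes of the interferon gamma axis 19 were tested, and 10 fell, 0 rose and 9 did not pass, with a median of -0.57. The share called, 52.6%, was near the 55.4% of all tested genes, of which 28.4% were lower. At an unadjusted p below 0.05, 12 were lower and 1 higher, and DESeq2 called 11 lower and 0 higher. Irf1, a transcription factor gene that acts on class I promoters, had 815, 584 and 716 CPM in WT and 201, 318 and 357 CPM in PLD and fell by 1.27 ± 0.23. The feedback inhibitor genes Socs3 (-1.61 ± 0.12) and Socs1 (-0.61 ± 0.16) and the kinase genes Jak1 (-0.72 ± 0.14) and Jak2 (-0.44 ± 0.09) fell. Targets gave falls of Gbp3 (-1.87 ± 0.40), Cxcl10 (-1.60 ± 0.41) and Cxcl9 (-1.43 ± 0.41), whereas Gbp2 (-0.54), Irgm1 (-0.58) and Cd274 (-0.17) did not pass. Ifngr1 (0.09) and Ifngr2 (0.35), the receptor genes, did not pass, and Ifng itself had at most 1 read in a library.

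Markers of cells that make class II molecules moved with some of these values, and their part in the results was not tested. The summed CPM of 5 pan-leukocyte markers was 150.3 to 172 in WT and 93.5 to 148 in PLD. That of 10 dendritic cell markers was 97.5 to 134 in WT and 30.3 to 63.4 in PLD. Zbtb46 gave the largest part of this sum in WT, with 45.0, 46.1 and 77.8 CPM. It had 10.6, 14.1 and 14.7 CPM in PLD. Of the 10 dendritic cell markers 5 were lower and 0 higher. Their called share was 50%, against 55.4% of all tested genes (28.4% lower). Of these 5, Flt3 lost its call without PLD replicate 2, WT replicate 2 or WT replicate 3 (edgeR adjusted p = 0.0737, 0.0516 and 0.0680), and Irf4 lost it when any 1 library other than WT replicate 3 was left out (edgeR adjusted p up to 0.110). The sum of 13 macrophage markers was 573 to 677 in WT and 715 to 959.6 in PLD. Without Csf1r, a comparison made after the values were seen, it was 432 to 533 in WT and 448 to 566 in PLD, so that the groups overlapped. The median log2 fold change of the 13 was -0.15, and 10 did not pass. Csf1r (1.38) rose. Lyz2 (0.34) passed too, but not without PLD replicate 3 or any 1 WT library (edgeR adjusted p = 0.0783 to 0.0808), and its change was 0.019 with the length trend removed. Cd163 (-1.52) passed, but not without PLD replicate 2, PLD replicate 3 or WT replicate 3 (edgeR adjusted p = 0.0607, 0.0622 and 0.0622). The sums of 8 B cell markers (35.7 to 59.8 in WT, 13.4 to 51.7 in PLD) and of 11 T and NK cell markers (11.2 to 12.3 in WT, 4.47 to 16.5 in PLD) overlapped. In each of these 5 lists 0 genes were at 0 reads in all libraries of a group. Within PLD the pan-leukocyte, dendritic, macrophage and T cell sums were lowest in PLD replicate 1 and highest in PLD replicate 3. So were the class II genes H2-Aa, H2-Ab1, H2-Eb1 and Cd74, and also H2-K1, H2-D1, B2m, Tap1 and Nlrc5 of the class I pathway. The endothelial, fibroblast and hepatocyte sums had the same order in PLD (389.8, 541 and 682, then 1809, 3759 and 4653, then 2974, 6291 and 6744 CPM), and the cholangiocyte sum the reverse order (44348, 34882 and 31908 CPM), so the order was not particular to leukocyte markers. The hepatocyte sum was led by Alb (1301, 5081 and 5503 CPM in PLD). Apoa1 and Serpina1c took the order of Alb. Hnf4a (1087, 559 and 642 CPM in PLD), Fgb, Tat, Ahsg and Cps1 were highest in PLD replicate 1 among the PLD libraries. Adgre1, a macrophage gene, had 38.6, 36.7 and 39.7 CPM in WT and 13.1, 28.0 and 52.6 CPM in PLD. Ccr7, a gene of migrating dendritic cells, had 11.9, 19.4 and 11.7 CPM in WT and 5.98, 12.7 and 25.1 CPM in PLD. Timd4, C1qa, C1qb, C1qc and Lyz2 took the same order in PLD as Adgre1, but not all macrophage markers did. PLD replicate 1 was the highest PLD library for Cd68 (50.4, 30.1 and 30.3 CPM), Cd163 (9.49, 3.17 and 3.84 CPM), Vsig4 and Marco. Ptprc, the pan-leukocyte gene CD45, had 36.8, 37.0 and 37.1 CPM in WT and 13.4, 16.7 and 26.5 CPM in PLD and fell (-0.97 ± 0.23, edgeR adjusted p = 0.00928), a call lost with the length trend removed (adjusted p = 0.0535). Reads of H2-Ab1 and Cd74 per Ptprc read were 23.9, 23.1 and 24.6 in WT and 39.8, 54.8 and 47.9 in PLD, a log2 difference of 0.98 (exact permutation p = 0.1, adjusted 0.11). Ptprc fell most of the 5 pan-leukocyte markers, and ratios to the others were not taken. Of these 5, 2 were lower and 0 higher, a called share of 40% against 55.4%. Coro1a (-0.81) passed, but not without PLD replicate 2 or any 1 WT library (edgeR adjusted p = 0.0512 to 0.123). Laptm5 (-0.33), Cd53 (-0.22) and Cd52 (-0.02) did not pass.

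The class I falls stood beside the endothelial marker sums given above, and beside a median log2 fold change of -3.52 over 12 endothelial markers and of 1.61 over 11 cholangiocyte markers. Of 12 fibroblast and stellate markers 9 fell and 1 rose, with a median log2 fold change of -1.66. Their called share was 83.3%, against 55.4% of all tested genes (28.4% lower). Their summed CPM was 7453 to 12662 in WT and 1809 to 4653 in PLD. The sum of 10 hepatocyte markers was 1573 to 2485 CPM in WT and 2974 to 6744 CPM in PLD. Of these 10, 3 were higher and 3 lower, a called share of 60%. Alb, the largest part of that sum, did not pass (edgeR adjusted p = 0.0537). The part of these cell types in the class I values was not tested. Relative to Epcam, the gene of the protein used for selection, H2-K1 and H2-D1 had 5.38, 9.23 and 6.21 reads per Epcam read in WT and 1.118, 1.90 and 2.35 in PLD, a log2 difference of -1.98 (exact permutation p = 0.1, adjusted 0.11). The groups did not overlap in this ratio. Epcam itself rose from a mean of 354 CPM in WT to 1083 CPM in PLD (log2 fold change 1.61 ± 0.24, edgeR adjusted p = 0.00107). H2-K1 and H2-D1 did not pass, so the size of this ratio is not that of a class I change. Which cells the class I and class II reads came from was not tested.

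**Figure D4:**
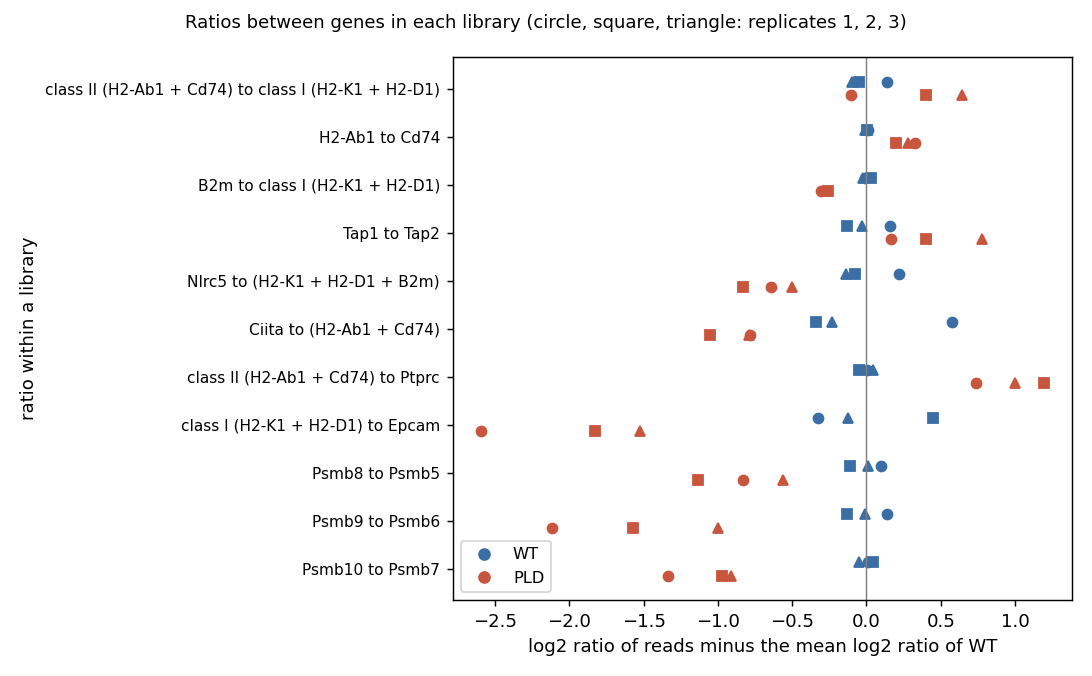
Log2 ratio of reads between genes within each library, minus the mean log2 ratio of the WT libraries (horizontal axis), for 11 ratios, with 1 point per library. WT and PLD are apart in 10 ratios and overlap in that of class II to class I. The H2-K1 and H2-D1 to Epcam ratio has the largest difference (-1.98), with Epcam itself higher in PLD by 1.61 on the log2 scale.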

How the data were processed

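Each library has 1 deposited table of raw read counts per gene. Per the file headers, featureCounts 1.6.0 was run by the authors with the mm10 annotation GENCODE vM25, and with no option for strand, paired ends or multi-mapping reads. The submitters' processing notes also list STAR 2.7.4a, SAMtools 1.12 and DESeq2 1.26.0, with no settings. Symbols came from GENCODE vM21 (55141 of 55401 IDs). The genes and lists were chosen with earlier results of these data known.

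These counts went into edgeR 4.0.16 under R 4.3.3: filterByExpr by group, TMM factors (0.922 to 1.04), the quasi-likelihood F test of PLD against WT without covariates, and Benjamini-Hochberg adjustment over 15334 genes with a threshold of 0.05. The standard error is the log2 fold change divided by the square root of F, and 95% intervals use the fit's degrees of freedom. CPM and RPKM use the TMM factors. Log2 CPM for profiles had a prior count of 2. Ratios within libraries used raw counts and an exact two-sided permutation test over libraries.

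The kappa B and interferon-stimulated motifs were shortened after longer forms had been searched, which raised their share of promoter windows. Named were all 10 genes, up to 6 genes of each other list with the smallest p, and the 3 profiles nearest to H2-K1 and to Cd74. Further list genes and H2-Ea-ps, H2-Bl, H2-K2 and H2-Q5 were picked with their values in view. Libraries of a group differed by more than sampling noise (chi-square per degree of freedom 9.72 to 63.9 where a gene had 50 or more reads in the pair). The fit was tested on simulated data. Alternatives were DESeq2 1.42.0, RLE and upper-quartile factors, no filter, a filter of 1 CPM in 3 libraries, a replicate block, removal of a loess trend (span 0.5) on gene length centred in each library, and leaving out each library. Intervals and the floor of 3 counts cover counting error or the spread between libraries only.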

Additional observations from a re-analysis of the deposited data

How the results depend on the processing

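Of the 10 presentation genes 5 kept direction and call under all 13 alternatives. The count of lower genes was 4 of 10 with the replicate block and 4 with the length trend removed, through H2-K1 (edgeR adjusted p = 0.0313 and 0.0446), and between 2 and 5 when 1 library was left out. The replicate numbers did not pair the libraries: deviations of same-numbered PLD and WT libraries correlated by 0.16, 0.04 and 0.06, and not every library correlated best with its own number. The block gave 1 higher gene of the interferon gamma axis, and upper-quartile factors also gave 1; without a filter 1 class II pathway gene was lower instead of 2; with the length trend removed 1 gene of the SXY list was lower instead of 2. Leaving out 1 library gave 0 to 1 higher of the 10 genes, 1 to 2 higher and 1 to 2 lower among the other class II genes, and 0 to 1 higher in the interferon gamma axis. Signs turned, when 1 library was left out, over ranges of -0.34 to 0.25 for Cd74, -0.092 to 0.49 for H2-Ab1, -0.016 to 0.43 for Cd22, -0.26 to 0.14 for Cd52 and -2.43 to 1.00 for Marco, and for Ifi30 (-0.0022) with the length trend removed. The cause was not tested. All 11 ratios kept their direction with reads per kilobase of gene model and when 1 library was left out. Scaling by length cannot change the group difference of a ratio between single genes. The length trend and the other alternatives were not applied to the ratios. A permutation test of 3 libraries against 3 cannot go below 0.1. Over all genes, calls ran from 3173 to 4183 higher and 3626 to 4562 lower without 1 library. Ciita had 28 to 138 reads a library, the fewest of the 10 genes.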
